A study of Saccharomyces cerevisiae with 11 samples.

Results

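The genes described here encode the large-subunit ribosomal proteins Rpl1 to Rpl20 of Saccharomyces cerevisiae. They were chosen by the open reading frame identifiers of RPL1A to RPL20B, with no measured value used, and the 37 genes were found in all 11 count tables among 6668 coding sequences. They encode 20 proteins: RPL3, RPL5 and RPL10 are single genes, and the other 17 proteins are each encoded by a pair of paralogs, an A copy and a B copy. The large (60S) subunit of the ribosome holds the catalytic center that joins amino acids and the tunnel through which the new chain leaves. Its proteins are made in the cytoplasm, imported into the nucleus, assembled with rRNA in the nucleolus, and the particle is exported and finished in the cytoplasm. In growing yeast the genes of these proteins are among the most actively transcribed, and their transcription follows nutrient supply.

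RNA-Seq and ribosome profiling, which sequences the mRNA fragments protected by ribosomes, were compared at 3 replicative ages of the MATa/MATα diploid BY4743, labeled wild type, in which both alleles of HIS3, LEU2 and URA3 are deletion alleles (his3Δ1, leu2Δ0, ura3Δ0) and LYS2 and MET15 are each paired with one (lys2Δ0, met15Δ0), grown in synthetic defined medium at 25 °C. Cells were coated with biotin and batch-cultured for 13 h. Young cells were the daughter fraction left in the supernatant of streptavidin magnetic beads, and Middle cells were the mother cells held by the beads. Aged cells were beaded mothers grown for a further 24 h in the miniature chemostat aging device (MAD), a vessel on a ring magnet that keeps the mothers while the flow of medium carries daughters away. There were 2 RNA-Seq libraries for each age, 2 footprint libraries each for Young and Middle cells, and 1 footprint library for Aged cells, so that Aged footprints have no replicate. Only the Aged cells had grown in the MAD, so replicative age and culture in the device cannot be told apart in any comparison with Aged cells. The question was how the RNA, the footprints and the footprints per RNA of these genes differed between the ages.

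The RNA-Seq libraries held 476704 to 2585717 counts and the footprint libraries 168247 to 965156, so that 3 counts, taken as the floor of detection, correspond to 1.16 to 6.29 CPM, counts scaled to a common library total, in RNA-Seq and 3.11 to 17.8 CPM in footprints (counting error only). The summed share of the 37 genes differed between replicates of one age before any comparison. Young replicates 1 and 2 gave 0.548% and 0.335% of RNA-Seq counts, the Middle replicates 0.476% and 0.321% and the Aged replicates 1.37% and 1.55%. For footprints the Young share was 0.923% to 1.74%, the Middle share 0.635% to 0.668% and the Aged share 2.89%. Young replicate 1 was above replicate 2 by a median of 1.67-fold over the 37 genes in RNA-Seq (higher in 34 of 37) and by 2.45-fold in footprints (higher in 37 of 37), whereas the median over all genes with at least 10 counts differed by 0.03 and 0.17 on the log2 scale. Results that rest on 1 of these libraries are therefore given with and without it. The 12 genes of the haploid mating program, which diploid cells repress, had 0 to 57 RNA-Seq counts and 0 to 35 footprints per library, with the highest counts in STE4 and STE18, and summed to 39.8 to 139 CPM in RNA-Seq and 29.0 to 87.7 CPM in footprints. HIS3, LEU2 and URA3, which the stated genotype lacks in whole or in part, had 12 to 412 RNA-Seq counts and 5 to 87 footprints in every library. Summed over 8 genes that daughter cells express after separation, the level was 438 to 1440 CPM in RNA-Seq. Of the 8, 2 were called higher in Aged than in Young RNA and 0 lower, against 8.02% and 4.93% of 5897 genes. They were DSE1 (log2 fold change 1.99 ± 0.31 (SE), adjusted p = 0.0035 by edgeR's quasi-likelihood test) and CTS1 (log2 fold change 1.57 ± 0.41 (SE), adjusted p = 0.0283). The median over the 8 was 0.88 on the log2 scale. The part of these departures from the labels in the results below was not tested.

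The copies of a pair differ little in sequence, which bounds what the counts can tell. Over the 17 pairs the coding sequences were 86.5% to 99.4% identical, and in 6 pairs, among them RPL1, RPL2, RPL12, RPL19 and RPL20, the encoded proteins did not differ at any residue. A footprint of 28 nt was taken as the measure: of all 28-nt windows in the counted part of the gene, 9.38% occurred at 1 place in the genome for RPL1, 16.2% for RPL4, 28.2% for RPL11, 30.5% for RPL7 and 47.8% for RPL14, and the share was 58.9% to 99.1% for the other 12 A copies and 100% for RPL3, RPL5 and RPL10. How the authors' counting treated reads that map to several places is not stated, so the counts of single copies in the first 5 pairs are uncertain. The stretches printed here are the 60 nt of the counted coding sequence with the most differences between the copies (R64, sacCer3, 5′ to 3′ on the coding strand), with the bases that differ between the copies in capitals. RPL1 is shown as the pair hardest to tell apart, with 4 differing bases in 654, and the other 3 pairs because their copy ratios are described below.
RPL1A (chrXVI:135930-135989, plus strand): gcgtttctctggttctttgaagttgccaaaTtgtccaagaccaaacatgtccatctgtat
RPL1B (chrVII:254781-254840, plus strand): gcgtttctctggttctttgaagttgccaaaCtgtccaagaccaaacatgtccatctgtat
RPL15A (chrXII:202098-202157, minus strand): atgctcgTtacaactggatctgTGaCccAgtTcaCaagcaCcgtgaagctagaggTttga
RPL15B (chrXIII:509856-509915, minus strand): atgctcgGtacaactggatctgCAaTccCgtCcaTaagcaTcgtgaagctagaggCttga
RPL16A (chrIX:99025-99084, minus strand): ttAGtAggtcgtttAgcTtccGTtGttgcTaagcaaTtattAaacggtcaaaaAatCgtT
RPL16B (chrXIV:494454-494513, minus strand): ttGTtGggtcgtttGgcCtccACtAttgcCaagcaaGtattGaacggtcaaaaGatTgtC
RPL17A (chrXI:109284-109343, plus strand): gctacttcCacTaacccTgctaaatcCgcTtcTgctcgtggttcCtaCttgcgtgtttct
RPL17B (chrX:90801-90860, plus strand): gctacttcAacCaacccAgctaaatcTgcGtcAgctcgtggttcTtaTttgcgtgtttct
These stretches lie in coding exons. The RPL17 stretch starts at base 16 of the coding sequence, ahead of the intron, and the RPL16 stretch is in the last exon of the gene.

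The levels of the 37 genes spanned a wide range in Young cells. Levels are given as reads per kilobase of counted coding sequence relative to library depth (RPKM), scaled by the trimmed mean of M values (TMM) within each assay. In Young RNA the highest were RPL3 (YOR063W) at 762 ± 274 RPKM (SD, n = 2), whose protein reaches to the catalytic center, RPL10 (YLR075W) at 739.5 ± 212 RPKM (SD, n = 2), whose protein is among the last to join the subunit in the cytoplasm, and RPL15A (YLR029C) at 513 ± 147 RPKM (SD, n = 2), whose protein is deep in the rRNA core. The lowest were RPL9B (YNL067W) at 50.9 ± 5.0 RPKM (SD, n = 2), RPL16A (YIL133C) at 46.8 ± 31.5 RPKM (SD, n = 2) and RPL8A (YHL033C) at 38.1 ± 1.98 RPKM (SD, n = 2). RPL3 and RPL10 did not differ beyond their spread. RPL16A did not differ from RPL9B or RPL8A beyond its spread, whereas RPL9B was above RPL8A in both replicates. Of the highest 3 genes, RPL3 and RPL10 have no second copy, and RPL15B (YMR121C) was several times lower than RPL15A. In Young footprints RPL3 was at 1982 ± 1471 RPKM (SD, n = 2) and RPL10 at 1899.8 ± 1065 RPKM (SD, n = 2), again the highest, and RPL16A was lowest at 132 ± 60.6 RPKM (SD, n = 2).

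**Figure D1:**
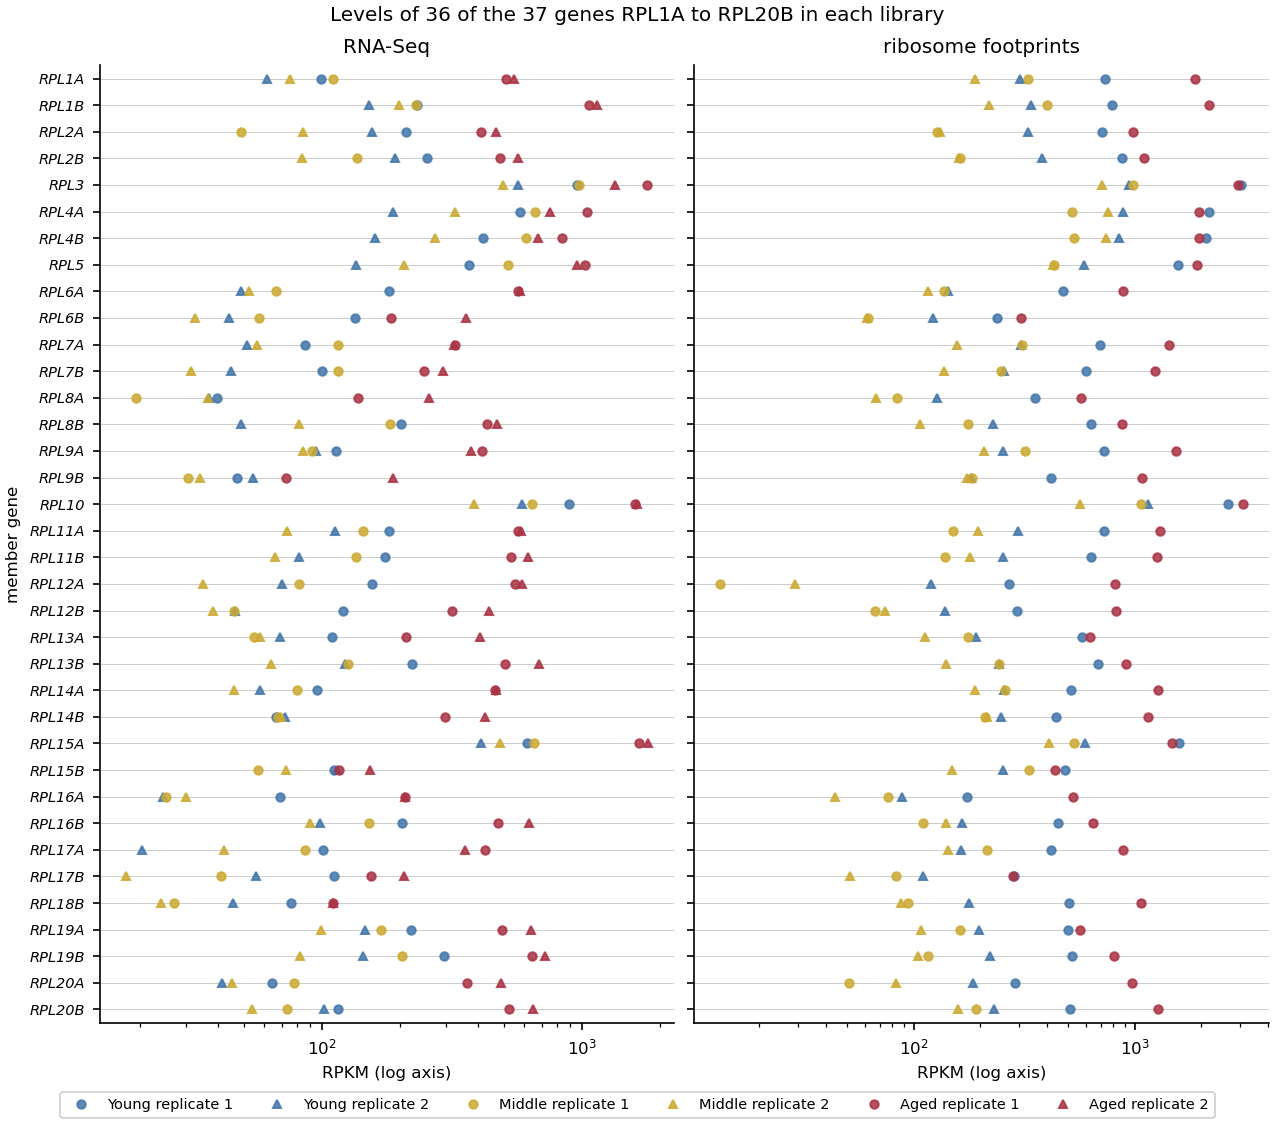
Level of 36 of the 37 genes in every library, as RPKM on a log axis, with RNA-Seq on the left and ribosome footprints on the right; circles are replicate 1 and triangles replicate 2. The Aged RNA points lie to the right of all Young and Middle RNA points in all 36 genes drawn, and the Middle footprint points lie to the left of both Young points in most.

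In Middle cells no gene of the 37 passed the test for RNA. The median log2 fold change against Young cells was -0.50, with 27 genes lower and 10 higher, and 11 genes had both Middle libraries below both Young libraries and none both above. edgeR's quasi-likelihood test with Benjamini-Hochberg adjustment, over 5818 genes, called 0 of the 37, against 0.859% of all genes called lower and 2.11% called higher. Of all genes, 29.0% had Middle below Young without overlap, near the 11 of 37 here. At an unadjusted p under 0.05 there were 4 lower and 0 higher, against 11.3% and 12.4% of all genes, and DESeq2 also called 0. The median over RPL21 to RPL43 was -0.79 and over the small-subunit genes -0.62.

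The smallest p on the lower side belonged to both RPL2 copies and RPL17B. RPL2A encodes a protein at the heart of the subunit next to the catalytic center. RPL2A (YFR031C-A) RNA was at 210.4 and 156 RPKM (Young), 48.9 and 84.5 RPKM (Middle) and 409 and 466 RPKM (Aged), and its B copy, which encodes the same protein, at 253 and 191 RPKM (Young), 137 and 83.6 RPKM (Middle) and 487 and 567 RPKM (Aged). In both copies the Middle and Young libraries did not overlap, with a log2 fold change of -1.39 ± 0.37 (SE) and an adjusted p of 0.0682 for RPL2A and a log2 fold change of -1.06 ± 0.34 (SE) and an adjusted p of 0.109 for RPL2B. RPL17B (YJL177W), a copy of the gene of a tunnel protein, was at 111 and 55.9 RPKM (Young), 40.9 and 17.6 RPKM (Middle) and 155 and 207 RPKM (Aged), with a log2 fold change of -1.67 ± 0.60 (SE) and an adjusted p of 0.142. On the higher side, RPL4B, RPL5 and RPL4A had the smallest p, at log2 fold changes of 0.58, 0.50 and 0.34 and adjusted p-values of 0.525, 0.614 and 0.748. Their directions rested on single libraries: without Middle replicate 1 they were -0.05, -0.24 and -0.20, and without Young replicate 2 RPL5 (YPL131W) was at -0.06 and RPL4A at -0.27. With each library left out in turn, RPL2A ran from -1.92 to -1.08, RPL2B from -1.37 to -0.71 and RPL17B from -2.17 to -1.015.

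In Aged cells the RNA of these genes was higher throughout. All 37 genes were above Young cells, with a median log2 fold change of 1.92 (3.79-fold) and a range of 0.26 to 3.06, and in every one of them both Aged libraries were above both Young libraries, against 29.8% of all genes. The quasi-likelihood test called 28 of 37 higher and 0 lower, against 8.02% and 4.93% of 5897 genes. As counts are relative to the library and come from pools of cells, more RNA per cell and more cells that express a gene cannot be told apart, nor can a higher share from a smaller total. Age and the change from batch culture to the MAD cannot be told apart either. The medians of RPL21 to RPL43 and of the small-subunit genes were 2.24 and 2.19, and that of all genes -0.02. With the copies summed, 17 of 20 proteins' genes were called higher, with a median of 1.98; RPL3, RPL4 and RPL10 were not.

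The 4 smallest p-values belonged to RPL20A, RPL1A, RPL20B and RPL14A. RPL20A (YMR242C), one of 2 genes for the same surface protein of the subunit, was at 64.4 and 41.3 RPKM (Young), 78 and 45.1 RPKM (Middle) and 360.3 and 491 RPKM (Aged), and RPL20B at 115 and 102 RPKM (Young), 73.1 and 53.8 RPKM (Middle) and 527 and 648 RPKM (Aged). The Aged libraries of both copies were far above all Young and Middle ones, with a log2 fold change of 3.06 ± 0.38 (SE) and an adjusted p of 0.0013 for RPL20A and a log2 fold change of 2.44 ± 0.32 (SE) and an adjusted p of 0.00159 for RPL20B. RPL1A (YPL220W), one of the copies for the mobile stalk that tRNAs pass as they leave, was at 99.1 and 61.8 RPKM (Young), 111 and 75.2 RPKM (Middle) and 510.0 and 549 RPKM (Aged) (log2 fold change 2.74 ± 0.35 SE, adjusted p = 0.0013). RPL14A (YKL006W) was at 95.9 and 57.8 RPKM (Young), 80.1 and 46 RPKM (Middle) and 465 and 466 RPKM (Aged) (log2 fold change 2.64 ± 0.38 SE, adjusted p = 0.0024), and its 2 Aged libraries were nearly equal. Among genes of the 5S rRNA particle, RPL5 was at 369.6 and 135 RPKM (Young), 522 and 207 RPKM (Middle) and 1030.5 and 961 RPKM (Aged) (log2 fold change 1.98 ± 0.46 SE, adjusted p = 0.0179), and both copies of RPL11, the partner of RPL5 on this rRNA, were called, at 1.99 and 2.20.

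The 9 genes that were not called were RPL3, RPL4A, RPL4B, RPL6B, RPL9B, RPL10, RPL15B, RPL17B and RPL18B. RPL3 was at 956 and 569 RPKM (Young), 971 and 498 RPKM (Middle) and 1776 and 1339 RPKM (Aged) (log2 fold change 1.02 ± 0.42 SE, adjusted p = 0.139), and RPL10 at 889 and 589.7 RPKM (Young), 641 and 385 RPKM (Middle) and 1606 and 1629 RPKM (Aged) (log2 fold change 1.12 ± 0.37 SE, adjusted p = 0.0707). In both genes the ages were separated by less than in most of the others. RPL15A and RPL15B, which encode proteins that differ at 2 residues, parted: RPL15A was at 617 and 409.6 RPKM (Young), 656 and 485 RPKM (Middle) and 1655 and 1798 RPKM (Aged) (log2 fold change 1.75 ± 0.37 SE, adjusted p = 0.0125), and RPL15B at 111 and 115 RPKM (Young), 57.1 and 73 RPKM (Middle) and 117 and 153 RPKM (Aged) (log2 fold change 0.26 ± 0.35 SE, adjusted p = 0.673). RPL15B had the smallest Aged to Young change of the 37, and its lower Aged library was barely above its higher Young one. RPL18B (YNL301C), also not called, was at 76.2 and 45.6 RPKM (Young), 26.9 and 24.1 RPKM (Middle) and 111 and 110.0 RPKM (Aged) (log2 fold change 0.89 ± 0.42 SE, adjusted p = 0.196).

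The number of calls depended on Young replicate 2, where these genes were low. Without it, neither these genes nor any other passed the test, and the median log2 fold change of the 37 was 1.49. Without Young replicate 1 the median was 2.43. DESeq2 on all libraries called 31, against 727 of 5897 genes called in either direction.

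Against Middle cells the Aged RNA was higher in all 37 genes, at a median log2 fold change of 2.41, and 32 were called higher and 0 lower, against 4.76% and 3.0% of 5674 genes. RPL6A (YML073C) was at 182 and 49.1 RPKM (Young), 66.6 and 52.5 RPKM (Middle) and 567 and 577 RPKM (Aged) and had a log2 fold change of 3.31 ± 0.29 (SE) and an adjusted p of 0.00133. RPL12B (YDR418W), one of the copies for the base of the stalk that recruits elongation factors, was at 120.1 and 46.3 RPKM (Young), 45.8 and 38 RPKM (Middle) and 316 and 439 RPKM (Aged) and had a log2 fold change of 3.23 ± 0.35 (SE) and an adjusted p of 0.00166. The other 2 of the 4 smallest p-values were RPL20B (log2 fold change 3.28 ± 0.30 SE, adjusted p = 0.00133) and RPL1B (log2 fold change 2.39 ± 0.26 SE, adjusted p = 0.00166). The genes not called were RPL3, RPL4A, RPL4B, RPL5 and RPL15B. Part of the 32 calls was lost without Middle replicate 2 or without Aged replicate 2. With each library left out in turn the median ran from 2.13 to 2.61. This comparison shares the Aged libraries with the one above.

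The longer genes differed less than most of the others between Aged and Middle RNA. RPL3, RPL4A, RPL4B and RPL5, the 4 genes with a coding sequence over 850 nt, had log2 fold changes with a median of 0.99 (0.80 to 1.48), and the other 33 had a median of 2.51 (1.04 to 3.49). Over the 37 genes Spearman's rho between coding length and the log2 fold change was -0.72 (Pearson's r = -0.74), and over 5674 genes rho was -0.06. For Aged against Young RNA the values were -0.43 (r = -0.40) and -0.25. These are descriptions across genes that share libraries and, in pairs, sequence. All 4 long genes were higher in Middle RNA replicate 1 than in replicate 2, with RPL5 at 522 and 207 RPKM. The relation to length was not computed with a library left out. Length moves with other traits here, since the 4 long genes have no intron and are highly expressed. Of the genes under 600 nt, the 13 with an intron in the coding sequence had a median Aged to Young log2 fold change of 2.26 and the 6 without one 2.09. The A copies had a median of 2.26 and the B copies of 1.81, with no test of the difference.

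In Middle cells the footprints were lower in all 37 genes. The median log2 fold change was -1.29 (2.44-fold lower), 30 genes were past 2-fold lower, against 16.5% of all genes, and in 28 genes both Middle libraries were below both Young ones, against 27.7% of all genes. Only 3 genes passed the test, RPL12A, RPL2A and RPL2B, against 4.15% of 4167 genes called lower and 2.74% higher, and 28 were lower at an unadjusted p under 0.05, against 14.4% of all genes. The medians were -1.34 for RPL21 to RPL43 and -1.44 for the small-subunit genes. With the copies summed, RPL2 (log2 fold change -1.99, adjusted p = 0.0382) and RPL12 (-2.10, adjusted p = 0.0313) were called.

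RPL2A footprints were at 711 and 329 RPKM (Young), 128 and 132 RPKM (Middle) and 980.2 RPKM (Aged), and RPL2B footprints at 879 and 379 RPKM (Young), 162 and 161 RPKM (Middle) and 1096 RPKM (Aged). The Middle replicates of both copies were close to each other and the Young ones far apart, with a log2 fold change of -2.0 ± 0.47 (SE) and an adjusted p of 0.0319 for RPL2A and a log2 fold change of -1.97 ± 0.48 (SE) and an adjusted p of 0.0381 for RPL2B. RPL12A (YEL054C) was at 269 and 119 RPKM (Young), 13.3 and 28.9 RPKM (Middle) and 814 RPKM (Aged) (log2 fold change -2.92 ± 0.64 SE, adjusted p = 0.0254). Its Middle values rest on 1 and 7 counts, the first under the floor, so the size of the change is poorly known; RPL12B, which encodes the same protein, had 5 and 18 counts there and a log2 fold change of -1.56 ± 0.51 (SE) and an adjusted p of 0.086. RPL20A was next, at 287 and 186 RPKM (Young), 51 and 82.9 RPKM (Middle) and 970.3 RPKM (Aged) (log2 fold change -1.70 ± 0.47 SE, adjusted p = 0.0528), where the Middle counts were 4 and 21. RPL5 was at 1567 and 592 RPKM (Young), 433 and 427 RPKM (Middle) and 1916 RPKM (Aged) (log2 fold change -1.34 ± 0.51 SE, adjusted p = 0.136).

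How many genes were called depended on single footprint libraries. Without Young replicate 2 the median log2 fold change was -1.87, and without Young replicate 1 it was -0.50. RPL12A, RPL2A and RPL2B were not called without Young replicate 1 or without Middle replicate 2. RPL2A and RPL2B were also not called without Middle replicate 1. With all libraries, DESeq2 called 5 lower, against 321 of 4167 genes called in either direction. The direction held with each library left out in turn for the median of the genes and for RPL12A, RPL2A and RPL2B.

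Aged footprints were above the mean of Young ones in all 37 genes. With 1 Aged library there is no test; the median log2 fold change was 1.34 (2.53-fold), 23 genes were past 2-fold higher and 0 lower, against 16.5% and 18.4% of 4619 genes, and in 31 of 37 the Aged library was above both Young ones, against 40.7%. The medians of RPL21 to RPL43 and of the small-subunit genes were 1.52 and 1.49. The largest fold changes were those of RPL12A (2.08), RPL20A (2.03) and RPL16A (2.00), and the smallest those of RPL15B (0.22), RPL4A (0.34) and RPL4B (0.39). RPL16A was at 174 and 88.8 RPKM (Young), 76.6 and 44 RPKM (Middle) and 523 RPKM (Aged), with the Aged value well above both Young values. RPL4A (YBR031W), for a protein that lines the exit tunnel, was at 2173 and 881 RPKM (Young), 518 and 757 RPKM (Middle) and 1946 RPKM (Aged), with the Aged value between the Young ones. RPL15B was likewise at 485 and 253 RPKM (Young), 331 and 149 RPKM (Middle) and 434 RPKM (Aged). The 6 genes whose Aged library was not above both Young ones were RPL3, RPL4A, RPL4B, RPL15A, RPL15B and RPL17B.

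Against Young replicate 2 alone 36 genes were past 2-fold higher, at a median of 2.11, and against Young replicate 1 alone 13, at a median of 0.75. RPL4A, RPL4B and RPL15B turned from higher to lower when only Young replicate 1 was used, at -0.24, -0.19 and -0.24. RPL10 footprints were at 2653 and 1147 RPKM (Young), 1069 and 565 RPKM (Middle) and 3078 RPKM (Aged) and RPL3 footprints at 3022 and 942 RPKM (Young), 979 and 714 RPKM (Middle) and 2933 RPKM (Aged); for RPL3 the Aged library was a little below Young replicate 1. RPL1A was at 731 and 302 RPKM (Young), 330.0 and 189 RPKM (Middle) and 1881 RPKM (Aged), where the Aged library was above both Young ones.

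**Figure D2:**
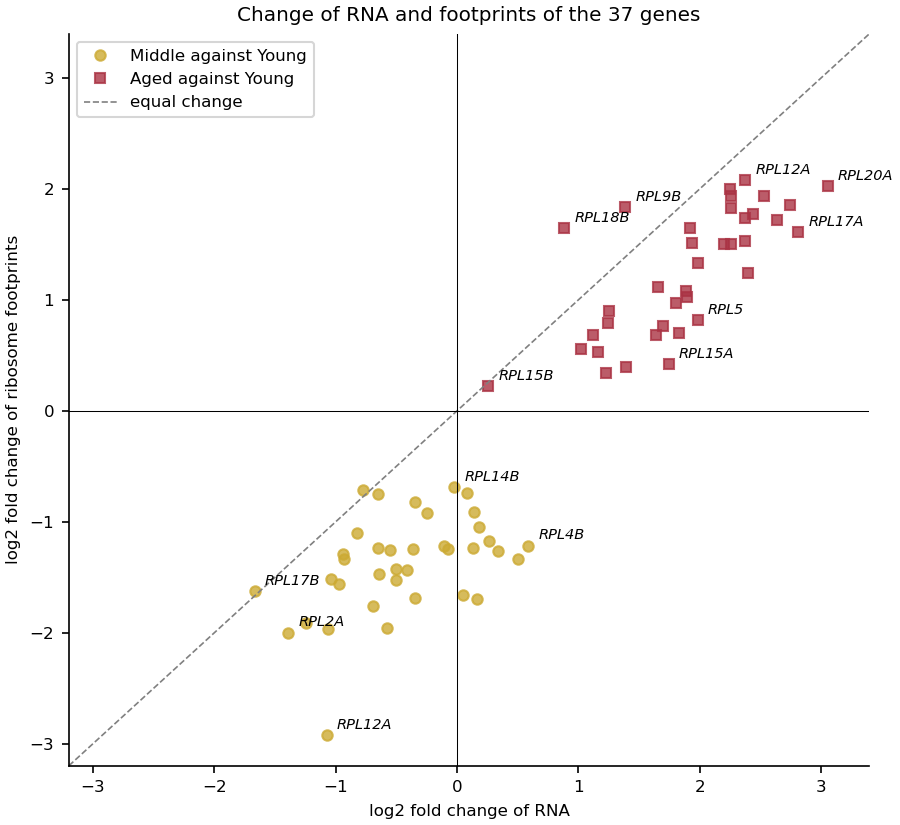
Log2 fold change of ribosome footprints (vertical axis) against that of RNA (horizontal axis) for the 37 genes, Middle against Young cells as circles and Aged against Young cells as squares, with a dashed line where both are equal. Most points lie below the line: the Middle medians were -0.50 for RNA and -1.29 for footprints, and the Aged medians were 1.92 and 1.34. RPL18B and RPL9B lie above the line in Aged cells.

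Footprints per RNA, called translational efficiency, were lower in Middle than in Young cells for most of the genes. The median log2 difference was -0.85 (1.80-fold lower), 35 of 37 genes were lower and 15 were past 2-fold lower, against 8.87% of 5334 genes; 0 were past 2-fold higher, against 6.79%. The age-by-assay interaction called 0 of the 37 (1 lower and 0 higher at an unadjusted p under 0.05, against 1.97% and 1.20% of all genes), DESeq2 called 0, and edgeR called 0.00% of all genes in either direction. The medians were -0.69 for RPL21 to RPL43 and -0.83 for the small-subunit genes. Libraries of one age and replicate number were taken as 1 lysate. With the 2 libraries of each lysate as a block, edgeR called 4 lower, RPL4A, RPL4B, RPL5 and RPL8B, against 0.881% of all genes called lower and 0.150% higher. With a term for each lysate, few libraries were left to measure the spread of a gene, so these p-values rest mainly on a spread pooled over all genes. RPL4A and RPL4B, with 16.2% unique windows, are not separate evidence.

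RPL5, the import partner of RPL11 on the 5S rRNA, had a ratio of footprint to RNA CPM of 4.24 and 4.38 (Young), 0.831 and 2.06 (Middle) and 1.86 and 1.99 (Aged). Both Middle lysates were below both Young ones, and the comparison gave a log2 fold change of -1.78 ± 0.82 (SE) and an adjusted p of 0.9998, or a log2 difference of -1.62 ± 0.37 (SE, adjusted p = 0.00213) with the lysate block. RPL4B (YDR012W) had ratios of 5.02 and 5.29 (Young), 0.872 and 2.72 (Middle) and 2.33 and 2.87 (Aged), with -1.63 ± 0.37 (SE, adjusted p = 0.00163) under the block, and RPL8B (YLL045C), whose protein joins early precursors, had ratios of 3.13 and 4.66 (Young), 0.964 and 1.31 (Middle) and 2.04 and 1.86 (Aged), with -1.67 ± 0.42 (SE, adjusted p = 0.0112). RPL20A, with the smallest p without the block, had ratios of 4.46 and 4.5 (Young), 0.654 and 1.84 (Middle) and 2.69 and 1.98 (Aged) (log2 fold change -1.80 ± 0.66 SE, adjusted p = 0.9998). The Middle ratios of these genes were below the Young ones in both lysates, and the first Middle footprint library was the shallowest, with a median of 16 counts per gene over the 37. On the higher side there were only RPL15B (log2 fold change 0.10 ± 0.59 SE, adjusted p = 0.9998) and RPL17B (log2 fold change 0.10 ± 0.87 SE, adjusted p = 0.9998), and both changed sign when single libraries were left out.

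**Figure D3:**
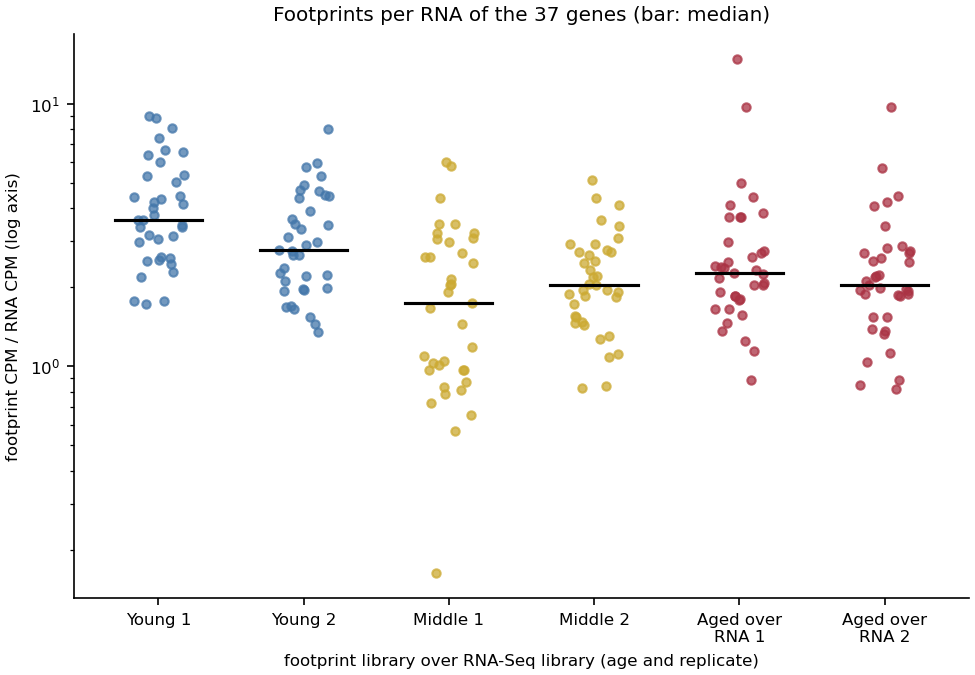
Footprint CPM over RNA CPM of each of the 37 genes, on a log axis, for each lysate of Young and Middle cells, and for the Aged footprint library over each Aged RNA-Seq library; bars are medians. The medians were 3.62 and 2.77 in Young, 1.75 and 2.04 in Middle and 2.28 and 2.04 in Aged cells.

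Lysate by lysate, both Middle ratios were below both Young ratios in 25 of the 37 genes, against 25.3% of all genes. Without Young footprint replicate 1 only 4 genes were past 2-fold lower, and without Young footprint replicate 2 there were 31; leaving out Young RNA replicates 1 and 2 gave 28 and 7, and Middle RNA replicate 1 gave 7. For Aged cells, with no replicate of footprints, the median log2 difference from Young cells was -0.56, 5 genes were past 2-fold lower and 0 higher, against 13.0% and 10.0% of 6028 genes, a share of the genes near that of all genes. The direction of the median turned on 1 library: without Young footprint replicate 1 it was 0.17, with 0 genes past 2-fold lower and 2 higher. Without Young footprint replicate 2 it was -1.07, with 21 genes past 2-fold lower. Without Young RNA replicate 1 there were 20 past 2-fold lower, and without Young RNA replicate 2 there were 0.

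In some pairs the copies parted in Aged cells, and for RPL15 already in Middle cells. There the log2 difference from Young cells was -1.31 for RPL15A and 0.10 for RPL15B. RPL15A had ratios of 2.58 and 1.45 (Young), 0.813 and 0.844 (Middle) and 0.889 and 0.818 (Aged), with a log2 difference of -1.23. RPL15B had ratios of 4.35 and 2.21 (Young), 5.79 and 2.04 (Middle) and 3.72 and 2.83 (Aged), with a log2 difference of 0.07. RPL17A and RPL5 followed on the lower side at -1.08 and -1.07. With each library left out in turn these ran from -1.76 to -0.39 for RPL15A, from -2.52 to -0.23 for RPL17A and from -1.95 to -0.24 for RPL5. RPL18B had ratios of 6.65 and 3.89 (Young), 3.49 and 3.62 (Middle) and 9.69 and 9.74 (Aged), with a log2 difference of 0.87. RPL9B had ratios of 8.82 and 3.35 (Young), 5.98 and 5.12 (Middle) and 14.8 and 5.71 (Aged), with a log2 difference of 0.56. Its first Aged ratio rests on 21 RNA-Seq counts, and both Aged ratios of a gene share 1 footprint library. RPL18B was above both Young ratios with either Aged RNA-Seq library and RPL9B with the first one alone, while RPL9A was at -0.17. The sign for RPL15B changed with the scaling (-0.02 with library totals and -0.02 with TMM within each assay), whereas RPL18B stayed at 0.29 to 1.76 and RPL9B at 0.08 to 1.43 with each library left out.

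The use of the copies differed from pair to pair. In Young RNA the A-to-B ratio per codon was farthest from 1 for RPL15, RPL16 and RPL8. The log2 ratio was 2.47 and 1.84 for RPL15, so that RPL15A was read several times as often as RPL15B, and -1.57 and -2.01 for RPL16, where the B copy led. For RPL8 it was -2.36 and -0.42, and the replicates disagreed on its size. RPL1 had -1.23 and -1.30, although few of its windows tell the copies apart. RPL7 and RPL14 had ratios of either sign in the 2 replicates.

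**Figure D4:**
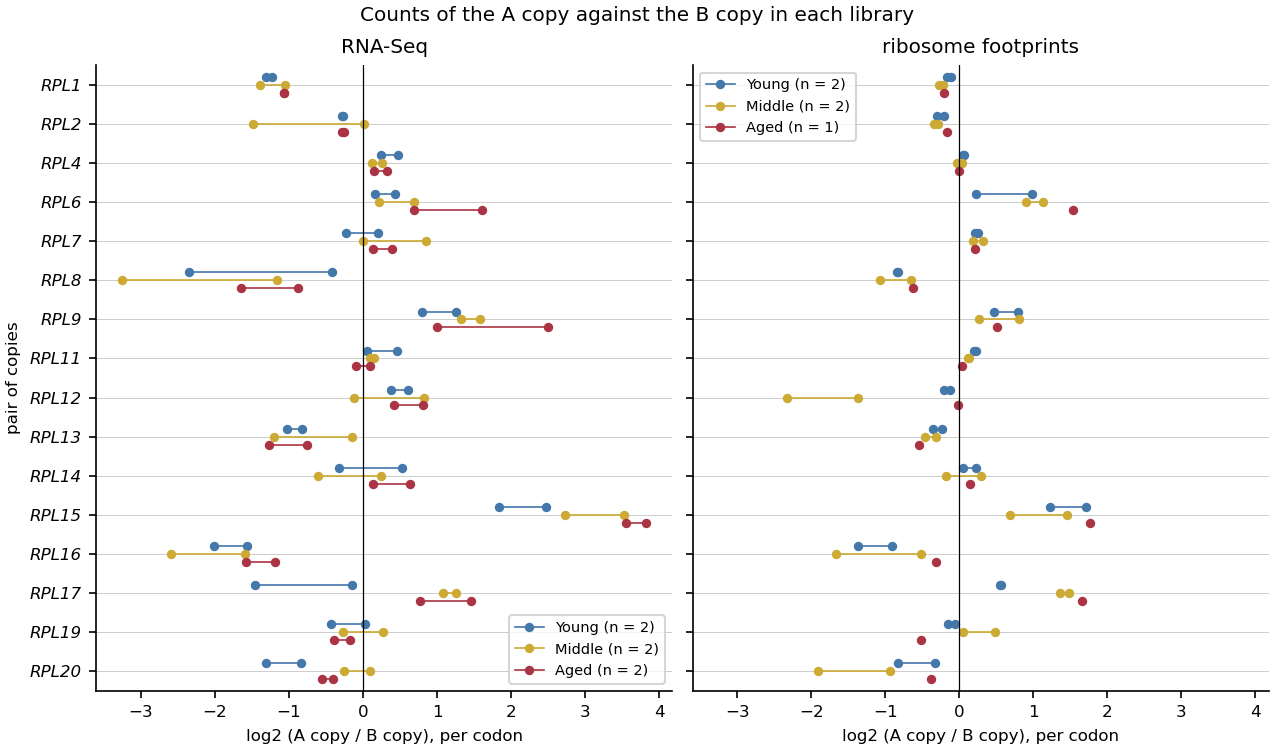
Log2 ratio of the A copy to the B copy, per counted codon, in each library for 16 of the 17 pairs; points are libraries, and lines join libraries of one age. RPL15 and RPL17 have Aged RNA ratios to the right of both Young ones, by 1.54 and 1.92 on average, and footprint ratios lie nearer 0 than RNA ratios in many pairs.

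The Aged RNA ratio lay on the side of the A copy from both Young ratios, without overlap, in 6 of 17 pairs, among them RPL1, RPL6, RPL15, RPL17 and RPL20, and on the side of the B copy in 0; among the 38 other pairs of ribosomal protein genes the shares were 21.1% and 18.4%. With 2 libraries against 2 the exact permutation test cannot give a two-sided p below 0.333, so none of these shifts can pass that test. The largest was that of RPL17, for a protein that reaches into the tunnel: the log2 ratio was -0.15 and -1.46 in Young, 1.08 and 1.25 in Middle and 1.46 and 0.78 in Aged RNA. The A copy thus led in every Middle and Aged RNA library, although the Middle ratios rest on 9 and 13 counts of RPL17B. In Young RNA the copies were nearly equal in replicate 1 and the B copy led in replicate 2, where RPL17B had 52 and 80 counts in turn. RPL17A (YKL180W) RNA was at 101 and 20.3 RPKM (Young), 86.3 and 42 RPKM (Middle) and 426 and 354 RPKM (Aged), and its Young counts were 47 and 29. For RPL15 the log2 ratio was 2.47 and 1.84 in Young, 3.52 and 2.73 in Middle and 3.83 and 3.56 in Aged RNA. With 1 library left out in turn the shift was 1.26 to 2.58 for RPL17 and 1.22 to 1.86 for RPL15. RPL20, with -0.84 and -1.31 in Young, 0.09 and -0.26 in Middle and -0.55 and -0.40 in Aged RNA, had a smaller shift.

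In footprints RPL17 had a shift of the same sign, from 0.56 and 0.57 in Young to 1.36 and 1.48 in Middle and 1.66 in Aged cells. The Middle footprint ratios rest on 7 and 14 counts of RPL17B. Unlike in RNA, the A copy already led in both Young footprint libraries. For RPL15 it was small, from 1.71 and 1.23 in Young to 1.76 in Aged cells. In Aged cells, with 1 library, the footprint ratio lay outside the Young ones toward the A copy in 8 pairs and toward the B copy in 5, and among the 38 other pairs in 31.6% and 36.8%. In Middle footprints the ratio lay outside the Young ones toward the A copy in 2 pairs and toward the B copy in 5, and among the 38 other pairs in 18.4% and 21.1%. The largest of these shifts was that of RPL12, at -2.32 and -1.36, against -0.13 and -0.21 in Young, on the 1 and 7 counts of RPL12A. RPL20 was at -1.91 and -0.93, against -0.82 and -0.32 in Young, toward the B copy, whereas its Middle RNA ratios lay toward the A copy.

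Footprint ratios were nearer to 1 than RNA ratios in 14 of the 17 pairs in Young cells. For RPL1 the log2 ratio was -0.11 and -0.16 in footprints, against -1.23 and -1.30 in RNA, and for RPL4 it was 0.05 and 0.06 in footprints, against 0.47 and 0.24. The 5 pairs with under 50% unique windows were RPL1, RPL4, RPL7, RPL11 and RPL14. Their footprint ratios were 0.06 to 0.23 in size on the log2 scale, with a median of 0.14. The other 12 had 0.11 to 1.47, with a median of 0.57. RNA ratios of the same groups spanned 0.01 to 1.27 (median 0.26) and 0.20 to 2.15 (median 0.98). Spearman's rho between the share of unique windows and the size of the footprint ratio was 0.56 over 17 pairs, as a description. At the median, pairs with fewer unique windows were thus more evenly split in both RNA and footprints. The translational efficiencies of single copies rest on both ratios. As RNA-Seq reads and footprints differ in length, the part of read sharing in the difference was not tested.

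**Figure D5:**
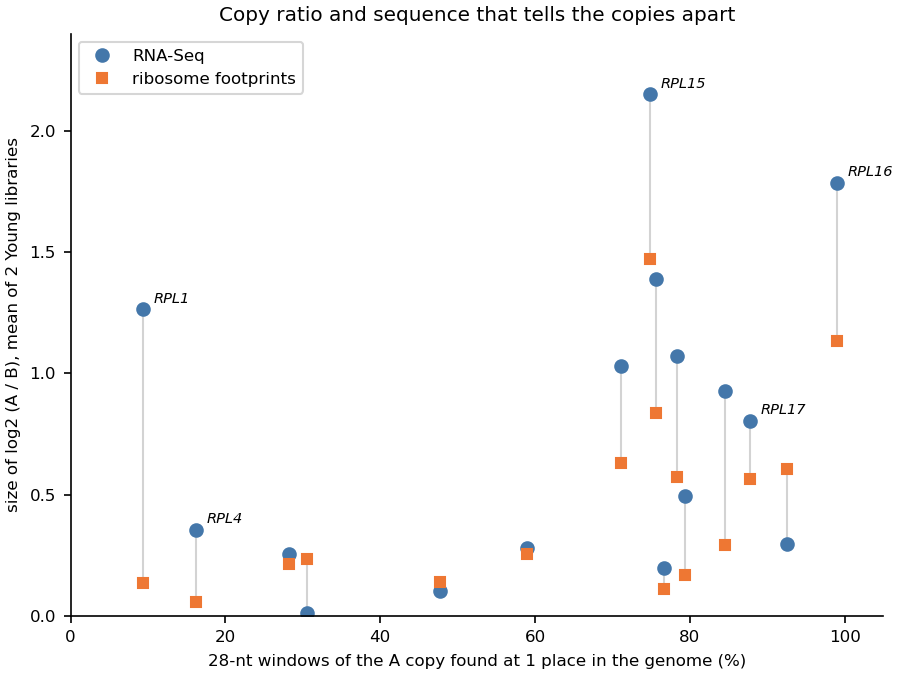
Size of the log2 A-to-B ratio, as the mean of the 2 Young libraries (vertical axis), against the share of 28-nt windows of the A copy found at 1 place in the genome (horizontal axis), for 16 of the 17 pairs; grey lines join RNA-Seq (circles) and footprints (squares) of a pair. The 5 pairs under 50% have footprint ratios of at most 0.23, and RPL15 and RPL16 reach 2.15 and 1.79 in RNA.

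Genes that act on the 37 or on their proteins were counted in the same way, beside 8.02% of all genes called higher in Aged than in Young RNA. Of 14 regulators of ribosomal protein gene transcription, among them RAP1, FHL1, IFH1 and SFP1, only SCH9, the kinase that signals nutrient supply downstream of TORC1, was called, and only in Aged against Young RNA (log2 fold change 1.23 ± 0.30 (SE), adjusted p = 0.0215); their median was 0.01. Of 13 dedicated chaperones and assembly factors of the 60S subunit, NMD3, the export adapter released as RPL10 joins (log2 fold change 1.47 ± 0.35 (SE), adjusted p = 0.0186), and TIF6, which keeps the subunits apart until maturation ends (log2 fold change 1.28 ± 0.34 (SE), adjusted p = 0.0289), were called higher in Aged against Young RNA, with a median of 0.72 for the list, and 0 were called lower. NMD3 was also called against Middle RNA (log2 fold change 1.74 ± 0.34 (SE), adjusted p = 0.0167). The chaperones of single members, RRB1 for RPL3, ACL4 for RPL4, SYO1 for RPL5 and RPL11 and SQT1 for RPL10, were not called in any tested comparison. ACL4 and SYO1 had too few counts to be tested in Middle against Young footprints. Of 6 enzymes that modify these proteins, 0 were called in any tested comparison, and in Middle footprints 1 of the 6 had enough counts to be tested. In Middle against Young RNA and footprints 0 genes of the 3 lists were called. The footprint test covered 11 of the 14 regulators, 8 of the 13 assembly factors and 1 of the 6 enzymes.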

How the data were processed

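Whole-number counts per coding sequence were deposited for each of 11 libraries, beside a length in codons. Per the methods of the study and the submitters' processing notes, base calls came from CASAVA 1.8, reads were trimmed with Fastp, reads on non-coding RNA were removed, and the rest were aligned with STAR 2.7.0a to the S288C genome (R64, sacCer3). The authors counted reads at an offset of 15 nt for RNA-Seq and left out the first and last 5 codons. Neither the use of strand nor the handling of multi-mapping reads is stated. The study's methods call the Young and Middle replicates biological, but whether replicates came from separate cultures is not given in the sources used here, so p-values measure the spread between these libraries.

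The deposited counts were fitted over all genes with edgeR 4.0.16 (filterByExpr, TMM, quasi-likelihood test, Benjamini-Hochberg threshold 0.05) under R 4.3.3, each comparison on its own libraries; translational efficiency was the age-by-assay interaction. Comparisons with the single Aged footprint library were fitted without a test, and 2-fold was the call. Medians with a library left out used a fixed dispersion of 0.1, and calls used the test, with an arm of 1 library assumed to vary like the other. Alternatives were DESeq2 1.42.0, other scalings and filters, summed copies, a joint fit, replicate blocks and leaving out each library. Tests were checked on simulated counts. Genes named are, per tested comparison, up to 4 per direction with the smallest p among those called, or 3 where none was; per untested comparison, 3 per direction by fold change; the 3 highest and lowest in Young RNA; 3 pairs by ratio and 3 by its change; RPL3, RPL5, RPL10 and the RPL15 and RPL20 copies; others were chosen after their values were seen, and 1 gene and the ratio of its pair are not reported here. The genes and lists were chosen with earlier results of these data known.

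The footprint and RNA-Seq libraries of one number and age came from one lysate; the correlation of their deviations from the age means was 0.41 in Young and 0.29 in Middle cells (5574 genes), and the fit with this block stands beside the translational efficiencies.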

Additional observations from a re-analysis of the deposited data

How the results depend on the processing

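Of 311 summary values under an alternative, 271 kept their direction and their side of the threshold or stayed within 1.5-fold, and 363 of 407 values of named genes did so; the cause of the others was not tested. RNA in Middle cells had 1 gene called lower with the replicate block (RPL2B) and 1 in the joint fit of the 3 ages (RPL2A). Middle footprints had 5 called lower with DESeq2 size factors and 5 with DESeq2's Wald test, 7 with TMM without ribosomal protein genes, 10 with at least 10 counts in every library, 17 with no filter and 16 with the replicate block. Past 2-fold lower translational efficiency in Middle cells held in 9 genes with at least 10 counts, and 4 genes were called with the lysate block.

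With each library left out in turn (counts of calls from a test chosen after seeing the data), genes called were 0 to 4 lower for Middle RNA, 0 to 30 higher for Aged against Young RNA, 19 to 32 higher for Aged against Middle RNA and 0 to 35 lower for Middle footprints. Medians ran from 1.49 to 2.43 for Aged against Young RNA, from -1.87 to -0.50 for Middle footprints, from 0.75 to 2.11 for Aged footprints, from -1.49 to -0.18 for Middle and from -1.07 to 0.17 for Aged translational efficiency. Genes past 2-fold were 13 to 36 higher for Aged footprints, 4 to 31 lower for Middle translational efficiency, and 0 to 21 lower and 0 to 2 higher for Aged translational efficiency. Pairs with separate Young and Aged RNA ratios were 9 to 13 with a library left out, where separation is easier to reach, against 6.

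Signs turned as follows. For Middle RNA, without Young replicate 2 RPL5 was at -0.06 and RPL4A at -0.27, and without Middle replicate 1 RPL4B, RPL5 and RPL4A were at -0.049, -0.24 and -0.20 (highest with a library left out 1.45, 1.42 and 1.38). For Aged footprints without Young replicate 2, RPL15B, RPL4A and RPL4B were at -0.24, -0.24 and -0.19 (highest 0.72, 1.09 and 1.15). For Middle translational efficiency, RPL17B was at -0.55 without Young RNA replicate 1, -0.56 without Middle RNA replicate 2, -0.55 without Young footprint replicate 2 and -0.26 without Middle footprint replicate 1 (highest 0.80), and RPL15B at -0.06 without Middle RNA replicate 1, -0.35 without Young footprint replicate 2 and -0.55 without Middle footprint replicate 1 (highest 0.58). For Aged translational efficiency, RPL15B was at -0.021 with library totals, -0.0046 with at least 10 counts, -0.023 with TMM within each assay, -0.09 without Aged RNA replicate 1 and -0.32 without Young footprint replicate 2 (highest 0.57), and the median was 0.17 without Young footprint replicate 1.

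Young and Middle cells are fractions of a beading reaction, but no source used here says that equal replicate numbers share one, so the pairing is not established: deviations of same-numbered libraries correlated at 0.21 between Young and Middle RNA, 0.04 between Young and Aged RNA, 0.35 between Middle and Aged RNA and 0.09 between Young and Middle footprints. The replicate block gave 34 calls for Aged against Young RNA, against 1127 of 5897 genes called in either direction. It gave 37 for Aged against Middle RNA (1418 of 5674 genes) and 0 for Middle translational efficiency (10 of 5334 genes). Depth limits the Middle values most, since 6 genes in RNA-Seq and 7 in footprints of replicate 1 had under 10 counts.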
